A study of Mus musculus with 15 samples.

Results

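The H2 genes are the mouse major histocompatibility complex on chromosome 17. They were taken by name, as every gene of the deposited gene table whose symbol begins with H2-, with pseudogenes whose symbol ends in -ps left out, which gave 41 of 45861 genes. By role these are 2 classical class I genes (H2-K1 and H2-D1) and 8 class I genes of the Q region. Class I also has 6 genes of the T region and 13 of the M region. Class II has 4 classical genes and 5 accessory genes of the DM and DO type. The other 3 (H2-K2, H2-Ke6 and H2-Pa) were not assigned to a class I or II chain by their names. At least 1 FPKM (sequenced fragments assigned to a gene, divided by transcript length and by library size) in at least 3 libraries was reached by 21 of the 41, and these were tested. Of the other 20, 10 were listed at 0 in every library.

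The libraries came from total RNA of snap-frozen liver of C57BL/6 mice in 4 groups, formed by genotype and diet. Wild-type (WT) mice and mice lacking Fkbp5 (Fkbp5-/-, here KO), the gene of an HSP90-binding co-chaperone of the glucocorticoid receptor, received a control liquid diet followed by a maltose gavage, or a diet with 5% ethanol, held for 10 days, followed by an ethanol gavage of 5 g/kg. Livers were collected 9 h after the gavage in all groups. Each group holds 4 libraries, except KO control with 3, and the labels give no age, sex or origin of the knockout allele.

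Class I molecules are a heavy chain paired with B2m, the beta-2-microglobulin light chain, and present peptides made by the proteasome and carried into the endoplasmic reticulum by the TAP transporter; nearly all nucleated cells carry the classical ones. Class II molecules are pairs of an alpha and a beta chain that present peptides taken up from outside; they are made mainly by dendritic cells, B cells and macrophages, in liver including Kupffer cells, the resident macrophages. Cd74, the invariant chain, escorts class II molecules, DM loads their peptide and DO restrains DM. Transcription of class II genes depends on the transactivator Ciita and that of class I genes in part on Nlrc5, both of which work through promoter elements that include a Y box.

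Promoters from RefSeq, on GRCm38.p6, were at hand for 31 of the 41 H2 genes and for 14 of the 21 tested, as 34 windows of 300 bases that begin 250 bases before the transcript start. The Y box was searched as CTGATTGG on both strands and stood in 19 of the 34 windows, against 4.10% of 32851 promoter windows of the same length. The letters GAAANNGAA, taken as the interferon element core, stood in 2 of the 34 windows against 8.56% of all. The gamma-activated element TTCNNNGAA stood in 3 of the 34 against 8.30%. Both were searched on both strands, and no match says only that these letters are not in this window. The search does not match tttcacttc, which stands in windows of H2-K1, H2-D1, H2-Q4, H2-Q6, H2-Q7 and H2-Q10, among others. The count for GAAANNGAA therefore leaves out such similar letters. Whether H2 windows hold other forms of the interferon element more often than all windows was not tested. The class II genes H2-Aa and H2-Eb1 are shown because their levels are followed over the diets below, and the class I genes H2-D1 and H2-Q10 because they are among the most abundant members; capitals mark the Y box, which in H2-D1 reads on the other strand as CCAATCAG. In H2-Q10 the capitals mark the letters closest to CCAATCAG on the printed strand near the start, the only stretch searched for near matches. They differ from it by T5C, counted from 1 at the 5′ end of CCAATCAG. Farther upstream in that window, ctgattga also differs by 1 letter, from CTGATTGG. The windows are chr17:34287774-34288073 (minus strand) for H2-Aa, chr17:34305617-34305916 (plus strand) for H2-Eb1, chr17:35262844-35263143 (plus strand) for H2-D1 and chr17:35469839-35470138 (plus strand) for H2-Q10.
H2-Aa: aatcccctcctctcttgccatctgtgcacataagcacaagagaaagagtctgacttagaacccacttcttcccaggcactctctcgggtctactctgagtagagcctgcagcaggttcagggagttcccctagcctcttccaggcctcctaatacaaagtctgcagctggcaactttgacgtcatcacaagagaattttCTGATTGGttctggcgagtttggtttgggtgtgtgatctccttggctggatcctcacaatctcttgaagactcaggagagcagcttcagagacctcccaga
H2-Eb1: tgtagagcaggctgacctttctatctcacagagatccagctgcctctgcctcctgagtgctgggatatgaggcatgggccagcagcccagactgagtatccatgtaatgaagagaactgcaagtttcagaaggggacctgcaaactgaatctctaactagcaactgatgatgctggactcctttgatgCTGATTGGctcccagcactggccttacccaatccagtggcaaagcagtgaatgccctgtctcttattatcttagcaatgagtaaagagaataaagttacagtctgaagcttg
H2-D1: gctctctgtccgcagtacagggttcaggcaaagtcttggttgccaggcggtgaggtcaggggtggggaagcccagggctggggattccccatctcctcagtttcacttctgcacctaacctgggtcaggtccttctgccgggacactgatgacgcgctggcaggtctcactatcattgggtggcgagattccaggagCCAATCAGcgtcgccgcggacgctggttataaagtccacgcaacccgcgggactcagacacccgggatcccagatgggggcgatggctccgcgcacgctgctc
H2-Q10: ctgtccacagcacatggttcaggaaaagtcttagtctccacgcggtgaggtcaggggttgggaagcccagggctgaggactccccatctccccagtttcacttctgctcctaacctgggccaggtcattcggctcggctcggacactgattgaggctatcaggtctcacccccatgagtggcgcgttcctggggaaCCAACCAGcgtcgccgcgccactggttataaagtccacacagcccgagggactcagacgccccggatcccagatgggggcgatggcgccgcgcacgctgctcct
The box began 51 bases before the start in H2-Aa, 62 in H2-Eb1 and 53 in H2-D1. The marked letters of H2-Q10 began 54 bases before the start.

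The labels were checked with the targeted gene. Fkbp5 averaged 8.55 ± 5.22 FPKM in WT control (SD, n = 4) and 0.995 ± 0.610 in KO control (SD, n = 3; exact permutation p = 0.0571, 2-sided, the smallest this design allows), and 42.9 ± 13.2 in WT ethanol against 4.01 ± 1.41 in KO ethanol (SD, n = 4 each; exact permutation p = 0.0286, 2-sided, also the smallest). For WT ethanol replicate 4 the title says WT and the genotype field says KO; its Fkbp5 stood at 45.2 FPKM, inside the range of the other WT ethanol libraries, and it was kept as WT. KO control replicate 1 held 183764 FPKM of the small RNA Rn7s1, which was listed at 0 in the other 14 libraries, and summed to 790741 FPKM against 416837 to 525108 elsewhere. The depth estimated from the values ran from 22300000 to 28700000 fragments per library. The hepatocyte genes Alb, Apoa1 and Ttr were among the markers found for the labelled tissue, and Alb was listed at 0 in KO ethanol replicate 3, against 11793 to 19019 FPKM elsewhere. Xist was above 10 FPKM in 2 libraries of each group except KO ethanol, where it was in 1.

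**Figure D1:**
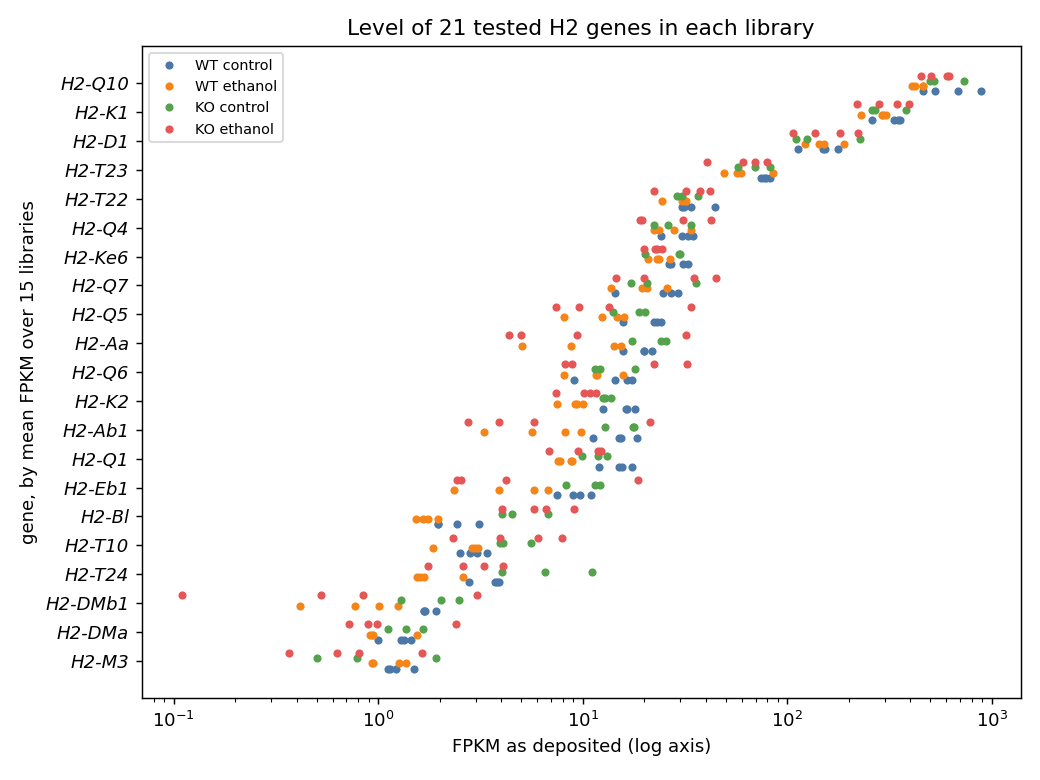
FPKM as deposited (horizontal log axis) of the 21 tested H2 genes in each of 15 libraries, with genes ordered by their mean and points coloured by group. Levels run from about 1 FPKM for H2-M3, H2-DMa and H2-DMb1 to 881 FPKM for H2-Q10, and the points of the class II genes are spread more widely on the ethanol diet than those of H2-K1 or H2-D1.

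The liver's H2 signal was carried by 3 class I genes. H2-Q10, a class I gene known for its secreted product and its liver expression, averaged 549 FPKM over the 15 libraries and made up 42.5% of the summed FPKM of the tested members. H2-K1 followed with 305 FPKM (23.6%) and H2-D1 with 154 FPKM (11.9%). H2-T23, the heavy chain of Qa-1, which engages receptors of natural killer cells, averaged 68.2 FPKM. H2-T22 (32.6), H2-Q4 (28.3), H2-Ke6 (25.4) and H2-Q7 (24.2) lay close together, as did H2-Q5 (16.9), H2-Aa (15.9), H2-Q6 (14.5), H2-K2 (11.9), H2-Ab1 (11.3) and H2-Q1 (11.2), all in mean FPKM. Over the 15 libraries the ranges of neighbours in this order overlapped within each of these runs. The lowest tested members were H2-Eb1 (7.71 FPKM), H2-Bl (3.81), H2-T10 (3.76), H2-T24 (3.68), H2-DMb1 (1.38), H2-DMa (1.24) and H2-M3 (1.076). Among members under the filter, H2-Q2 stood between 0.0666 and 0.558 FPKM, the class II beta gene H2-Eb2 between 0 and 0.143 and H2-M2 between 0 and 0.177, while H2-M10.2, H2-M10.6 and H2-M5 were at most 0.0504 and listed at 0 in most libraries. Class I genes are near-identical in stretches, so that reads may be shared among them. The level of any single Q or T region gene is therefore uncertain. Whether H2-K2 shares reads with H2-K1 was not tested.

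In WT livers the ethanol diet and binge lowered H2-K2 and H2-Q1, and the class II genes H2-Aa, H2-Ab1 and H2-Eb1 stood lower in each ethanol library than in any control library without being called. H2-K2 lies next to H2-K1 (chr17:33974659-33978791, GRCm38). Its level was 16.2, 18.1, 16.4 and 12.6 FPKM in WT control and 9.41, 9.14, 7.49 and 10.08 in WT ethanol. The groups did not overlap, and H2-K2 fell by 0.74 on the log2(FPKM + 1) scale (SE 0.14, limma adjusted p = 0.00941). H2-Q1, a class I gene of the Q region (chr17:35320523-35327699), stood at 15.03, 15.6, 17.4 and 12.0 FPKM in WT control and at 7.57, 8.85, 7.73 and 8.80 in WT ethanol. Again no library of a group reached the other, and H2-Q1 fell by 0.78 (SE 0.16, limma adjusted p = 0.0149). These 2 of 21 members were called lower and none was called higher, against a background of 7.7% of the 13840 tested genes called in either direction, 4.62% lower. The median log2 difference of the 21 members was -0.30, with 20 of 21 below 0. For all 13840 genes tested it was -0.04, with 7585 below 0. Both calls held in all 26 settings tried.

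The RNA of the I-A alpha and beta chains and of the I-E beta chain was lower in each WT ethanol library than in any WT control library. The amounts varied from mouse to mouse. No gene of the I-E alpha chain is among the members. H2-Ab1, the I-A beta chain (chr17:34263227-34269418), stood at 18.5, 15.04, 15.3 and 11.2 FPKM in WT control and at 3.29, 5.63, 8.19 and 9.85 in WT ethanol, a ratio of means of 0.449. H2-Aa, the I-A alpha chain (chr17:34282751-34287771), stood at 21.8, 19.9, 19.9 and 15.8 FPKM against 5.03, 8.77, 14.2 and 15.4. H2-Eb1, the I-E beta chain (chr17:34305867-34316674), stood at 11.0, 9.66, 8.93 and 7.51 FPKM against 2.36, 3.90, 5.79 and 6.73. The 3 genes kept 1 order of the WT ethanol livers, with replicate 1 lowest and replicate 4 highest. None passed the test in WT alone: the log2 differences were -1.11 for H2-Ab1 (SE 0.45, limma adjusted p = 0.138), -0.88 for H2-Aa (adjusted p = 0.260) and -0.91 for H2-Eb1 (adjusted p = 0.222). In bulk liver, fewer cells of a type and less RNA per cell cannot be told apart.

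Across all members, 8 of 21 had WT ethanol libraries entirely below the WT control libraries (H2-Aa, H2-Ab1, H2-Eb1, H2-DMb1, H2-K2, H2-Q1, H2-Q10 and H2-T24), against 9.28% of all tested genes in that direction. H2-DMb1, a beta chain of DM, stood at 1.67, 1.68, 1.69 and 1.91 FPKM in WT control and at 0.414, 1.02, 0.771 and 1.25 in WT ethanol (log2 difference -0.58, limma adjusted p = 0.249). H2-Q10 stood at 462, 526, 881 and 685 FPKM in WT control and at 405, 419, 460.1 and 459.6 in WT ethanol. Its WT control libraries varied widely and its WT ethanol libraries little, and the difference of -0.51 was not called (limma adjusted p = 0.131). On the control diet the H2-Q10 libraries low in Xist stood at 685 to 881 FPKM (3 libraries) and those high in Xist at 462 to 526 (4 libraries), a separation in this direction that 9.77% of tested genes also had; on the ethanol diet they overlapped, at 405 to 607 and 419 to 618. On the control diet H2-Ke6 also stood higher in every library low in Xist, at 30.1 to 32.7 FPKM against 20.1 to 29.5. H2-Eb1 stood lower in every library low in Xist, at 7.51 to 8.93 FPKM against 9.66 to 12.2, a separation that 9.49% of tested genes had. On the ethanol diet no member separated in this way. With a sex term in the fit the H2-Q10 difference in WT was -0.51 (limma adjusted p = 0.0937), and of the 26 settings quantile normalization was the 1 that called it (-0.72, adjusted p = 0.0479).

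The classical class I genes were not called. H2-K1 stood at 354, 334, 349 and 259.6 FPKM in WT control and at 294, 305, 229.6 and 291 in WT ethanol, and the groups overlapped (log2 difference -0.21, 95% interval -0.62 to 0.21). H2-D1 stood at 152, 150.2, 178 and 113 FPKM against 143, 190.3, 122 and 152 (log2 difference 0.03, 95% interval -0.53 to 0.59). Changes within these intervals cannot be told from none with these libraries. H2-T23 (-0.34), H2-T22 (-0.23), H2-Q4 (-0.18), H2-Q6 (-0.25), H2-Q7 (-0.23) and H2-Q5 (-0.72) all had log2 differences below 0 in WT with none called. The same held for H2-Ke6 (-0.30), a steroid dehydrogenase gene of the region also named Hsd17b8, and for H2-M3 (-0.08), which presents N-formylated peptides, H2-DMa (-0.13), H2-Bl (-0.29) and H2-T10 (-0.10).

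**Figure D2:**
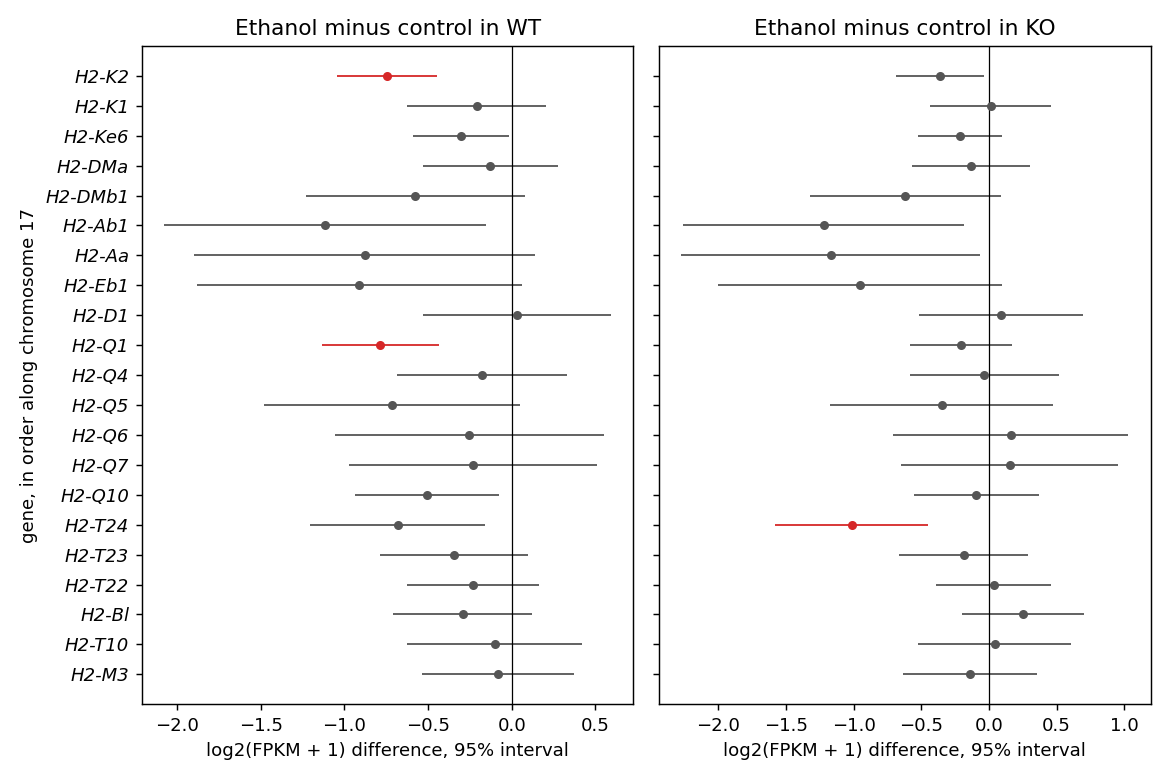
Log2(FPKM + 1) difference between the ethanol and the control diet for the 21 tested H2 genes in WT (left) and KO (right), in chromosome order, with 95% intervals from the limma fit; genes called at an adjusted p under 0.05 are red. H2-K2 and H2-Q1 are called in WT and H2-T24 in KO, and the intervals of the class II genes are among the widest.

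In KO livers the ethanol diet lowered 1 member, H2-T24, and 1 liver had high levels of the class II genes. H2-T24, a class I gene of the T region (chr17:36003992-36020845), stood at 11.1, 6.58 and 4.04 FPKM in KO control against 2.59, 1.75, 4.07 and 3.29 in KO ethanol. KO ethanol replicate 3 just overlapped KO control replicate 3, and the difference was -1.02 (SE 0.26, limma adjusted p = 0.0472), the only one of 21 called, against 4.13% of all tested genes, 2.72% lower. Without KO control replicate 1, the library at 11.1 FPKM, it was -0.69 (limma adjusted p = 0.164). Of the 26 settings, 6 kept the call. Within WT the same gene stood at 3.73, 3.91, 3.83 and 2.77 FPKM on the control diet and 1.69, 1.61, 1.55 and 2.59 on ethanol (log2 difference -0.68, limma adjusted p = 0.1002), with no overlap; 3 of the 26 settings called it there, with a smallest adjusted p of 0.0254.

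KO ethanol replicate 4 stood apart in class II. H2-Ab1 stood at 17.6, 17.8 and 12.9 FPKM in KO control against 2.76, 3.90, 5.80 and 21.2 in KO ethanol. H2-Aa stood at 25.5, 24.2 and 17.3 FPKM against 4.99, 4.39, 9.35 and 31.9. H2-Eb1 stood at 11.5, 12.2 and 8.28 FPKM against 2.43, 2.54, 4.24 and 18.7. In all 3 genes replicates 1 to 3 of KO ethanol lay below every KO control library and replicate 4 above every library of the study. With all libraries the log2 differences were -1.22 for H2-Ab1 (limma adjusted p = 0.163), -1.17 for H2-Aa (adjusted p = 0.206) and -0.95 for H2-Eb1 (adjusted p = 0.275). Without KO ethanol replicate 4 they were -1.76 (adjusted p = 0.0148), -1.73 (adjusted p = 0.0222) and -1.53 (adjusted p = 0.0162), and H2-DMb1 was -0.99 (adjusted p = 0.0289), so that 4 members were called in KO. That setting also gave 4 calls in WT, because the spread is shared among groups: H2-K2, H2-Q1, H2-Ab1 (adjusted p = 0.0276) and H2-Eb1 (adjusted p = 0.0367).

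The accessory genes were likewise highest of their group in KO ethanol replicate 4. H2-DMb1 stood at 2.49, 2.04 and 1.29 FPKM in KO control against 0.528, 0.110, 0.841 and 3.05 in KO ethanol. H2-DMa, the DM alpha chain, stood at 1.66, 1.37 and 1.11 against 0.896, 0.984, 0.718 and 2.40. H2-DMb2, a further DM beta gene under the filter, stood between 0.657 and 1.26 FPKM in the control-diet libraries, between 0.209 and 0.816 in WT ethanol, and at 0.0889, 0.0291, 0.355 and 0.808 in KO ethanol. The DO chain H2-Ob, also under the filter, stood between 0.166 and 0.474 FPKM on the control diet and between 0.0169 and 0.354 on ethanol, and H2-Oa between 0.0965 and 0.351 on the control diet and between 0 and 0.124 on ethanol. Over the libraries the estimated depth gives 0.619 to 25.6 fragments for H2-DMb2 and at most 9.10 for H2-Oa, so that single values are imprecise.

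**Figure D3:**
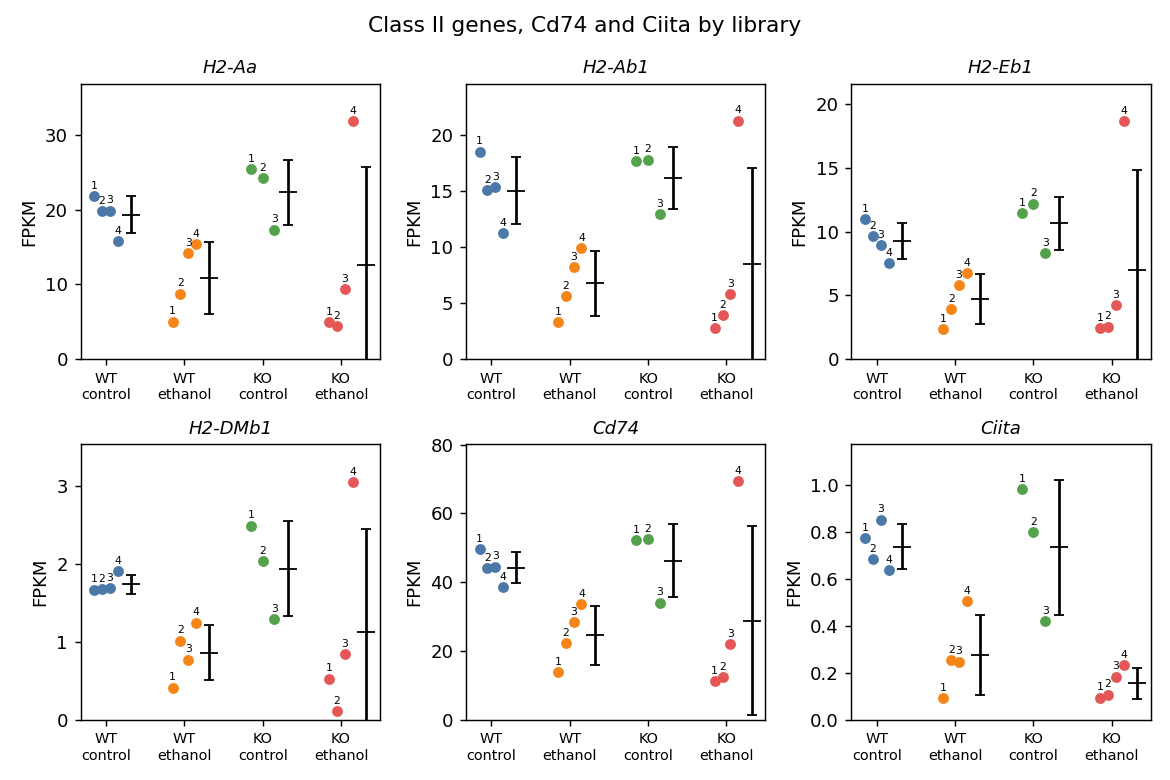
FPKM in each library (points, numbered by replicate) of H2-Aa, H2-Ab1, H2-Eb1, H2-DMb1, the invariant chain Cd74 and the transactivator Ciita, with the group mean and SD beside them; SD bars that would pass below 0 are cut at the axis. KO ethanol replicate 4 lies above the other 3 KO ethanol libraries in the first 5 panels, for example at 69.4 FPKM of Cd74 against 11.2 to 22.01, and in Ciita at 0.233 against 0.0949 to 0.184.

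Markers of Kupffer, B, dendritic, and T and NK cells also had their highest sum of the group in that library, while sinusoidal endothelial and hepatocyte markers did not. In KO ethanol replicate 4 the 11 Kupffer cell markers found, of 12 listed, summed to 212 FPKM against 51.8, 52.8 and 138 in replicates 1 to 3, and none was at 0 in any library. The 7 B cell markers summed to 3.28 FPKM against 0.594, 0.606 and 1.20, with 0 of 7 at 0 in replicate 4 and 3, 3 and 1 of 7 at 0 in the others. The 8 dendritic cell markers summed to 7.73 FPKM against 4.26, 3.49 and 5.31, and the 10 T and NK cell markers to 1.59 against 0.253, 0.336 and 1.51. In replicate 4, 0 of 8 dendritic and 2 of 10 T and NK markers were at 0. In replicates 1 to 3, 1, 2 and 1 of the 8 and 4, 3 and 0 of the 10 were at 0. The filter was reached by 0 B cell, 0 T and NK and 3 dendritic markers, so that these sums are of low values. The 8 sinusoidal endothelial markers summed to 51.5 FPKM against 42.6, 42.4 and 60.2, and the 7 hepatocyte markers found to 20731 against 27202, 29188 and 11177. The 11177 of replicate 3 lacks Alb, which was listed at 0 there. By group, the Kupffer sum ran from 129 to 246 FPKM in WT control, 80.0 to 167 in WT ethanol, 91.7 to 494 in KO control and 51.8 to 212 in KO ethanol, and the B cell sum from 2.17 to 3.89, 0.824 to 2.62, 2.82 to 3.97 and 0.594 to 3.28. Of all libraries, KO control replicate 1 had the highest Kupffer (494 FPKM), B cell (3.97), dendritic (12.9) and T and NK (4.41) sums. Its H2-Aa (25.5 FPKM), H2-Ab1 (17.6) and H2-Eb1 (11.5) nevertheless stood below those of KO ethanol replicate 4 (31.9, 21.2 and 18.7). The part of these cells in the class II differences was not tested.

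Averaged over genotypes, the ethanol diet lowered 4 of 21 members, against 20.9% of all tested genes called, 13.9% lower. They were H2-K2 (-0.55, SE 0.10, limma adjusted p = 0.00306), H2-T24 (-0.85, adjusted p = 0.00604), H2-Q1 (-0.50, adjusted p = 0.0119) and H2-Ab1 (-1.17, SE 0.33, adjusted p = 0.0244). H2-K2 was lower in 8 of 8 ethanol libraries than the mean of all control libraries, and it alone among the members had all ethanol libraries below all control libraries, which 3.6% of tested genes did. H2-Ab1 was lower in 7 of 8, and its call was lost in 5 of 25 settings, with adjusted p up to 0.0688: no filter on low values, a common sum, and without KO control replicate 1, KO control replicate 2 or KO ethanol replicate 2. H2-Aa (-1.02, adjusted p = 0.0526), H2-Eb1 (-0.93, adjusted p = 0.0619) and H2-DMb1 (-0.60, adjusted p = 0.0736) did not pass, and without KO ethanol replicate 4 all 3 did (adjusted p = 0.00280, 0.00130 and 0.00310), as did H2-Q5 (-0.74, adjusted p = 0.0103). The share of members called lay near the background, and the median of the 21 was -0.26 against -0.07 for all genes. Rescaling every library to a common FPKM sum left H2-T24 as the only call. That setting divides KO control replicate 1 by the largest factor, since its sum was 790741 FPKM, of which 183764 was Rn7s1. A common sum without Rn7s1 was not tested.

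The partners of the H2 chains gave the following. The mean of B2m was 874 ± 86.2 FPKM in WT control, and 649 ± 23.97 in WT ethanol (SD, n = 4 each), 796 ± 151 in KO control (SD, n = 3) and 675 ± 93.2 in KO ethanol (SD, n = 4), and fell by 0.33 averaged over genotypes (limma adjusted p = 0.0424). Of 9 class I assembly genes, 2 were called lower in that average, where 13.9% of all tested genes were called lower. These 2 were B2m and the chaperone gene Canx (-0.33, limma adjusted p = 0.0256). Tap1, a subunit of the peptide transporter, was -0.45 (limma adjusted p = 0.0608). Of 5 immunoproteasome and activator genes 1 was called, the catalytic subunit Psmb9 (-0.67, adjusted p = 0.0291). Of 12 tested interferon signalling genes 5 were called lower, where 13.9% of all tested genes were. They included the transcription factors Irf1 (-0.85, limma adjusted p = 0.00587), Irf9 (-0.95, adjusted p = 0.00791) and Stat2 (-0.65, adjusted p = 0.0149), and the receptor chain Ifnar1 (-0.24, adjusted p = 0.0490).

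Irf1, a transcription factor induced by interferon, was also called within KO (-1.08, limma adjusted p = 0.0385). The class I transactivator Nlrc5 was at 3.42 ± 1.31 FPKM in WT control and 3.44 ± 1.74 in WT ethanol (SD, n = 4 each), with an average difference of -0.07 (adjusted p = 0.833). Ciita did not reach the filter; it stood at 0.638 to 0.853 FPKM in WT control, 0.0929 to 0.506 in WT ethanol, 0.421 to 0.981 in KO control and 0.0949 to 0.233 in KO ethanol. Within each genotype its ethanol libraries lay entirely below its control libraries, KO ethanol replicate 4 included. Of the tested genes, 9.28% in WT and 15.2% in KO were lower in this way, and Ciita itself was not tested. The mean of Cd74 was 44.3 ± 4.51 FPKM in WT control, and 24.6 ± 8.51 in WT ethanol (SD, n = 4 each), 46.3 ± 10.58 in KO control (SD, n = 3) and 28.8 ± 27.5 in KO ethanol (SD, n = 4), a difference of -0.96 over genotypes (limma adjusted p = 0.0536).

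Further marker lists differed with diet. Averaged over genotypes, 2 of 11 Kupffer markers were called lower (Folr2 and Timd4), 4 of 8 sinusoidal endothelial markers lower (Clec4g, Fcgr2b, Stab1 and Stab2) and 1 higher (Lyve1), and of 7 tested hepatocyte markers Cps1 and Hnf4a were called higher. Of all 13840 tested genes, 1922 were called lower and 971 higher in that average. In WT alone, Cps1 and Lyve1 were called higher, where 427 of all tested genes were called higher and 639 lower. Pancreatic acinar markers, of which 11 of 14 were tested, summed to between 43.8 and 115 FPKM in WT control and to at most 32.7 in any other library, and all 11 were called lower with ethanol in WT. The WT control group thus also differed from the others in this list, and its part in the H2 differences was not tested.

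The genotype comparison asks whether loss of Fkbp5 changed the H2 genes on either diet. A single member was called: H2-Bl, a class I gene of the T region (chr17:36080189-36084249), was higher in every KO library than in any WT library. On the control diet H2-Bl stood at 1.96, 1.95, 3.11 and 2.42 FPKM in WT against 4.51, 4.05 and 6.74 in KO. On the ethanol diet it stood at 1.96, 1.75, 1.53 and 1.67 FPKM in WT against 5.75, 4.04, 6.59 and 9.07 in KO. The ratio of KO to WT means was 2.16 on the control diet and 3.69 on ethanol. On the ethanol diet H2-Bl rose by 1.39 (SE 0.19, limma adjusted p = 0.0114), the only 1 of 21 called, against 0.101% of all tested genes, 0.0795% higher; its groups did not overlap there, as in 0.86% of genes. On the control diet the difference was 0.85 (SE 0.21, limma adjusted p = 0.242), and 0 of 21 members were called by limma, against 0.181% of all genes; 2 of 21 members and 585 of 13840 genes had an unadjusted p under 0.05. H2-Bl, H2-T10 and H2-T24 had KO libraries entirely above WT, as did 4.54% of genes. Averaged over diets it was 1.12 (SE 0.14, limma adjusted p = 0.00249), higher in 7 of 7 KO libraries than the WT mean, against 0.354% of all genes called, 0.181% higher. Only 28 of 13840 tested genes, 0.202%, had all KO libraries above all WT libraries.

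The H2-Bl values rest on 43.4 to 276 fragments per library at the estimated depth. Averaged over diets its difference ran from 0.97 to 1.42 over 25 settings and was called in 24; the exception was moving WT ethanol replicate 4 to KO, which gave 0.97 (limma adjusted p = 0.131). At 1.67 FPKM that library lay inside the range of the other WT ethanol libraries for H2-Bl. On the ethanol diet alone the call was lost without KO ethanol replicate 1 (1.42, adjusted p = 0.0529), without KO ethanol replicate 3 (1.36, adjusted p = 0.0556) and with only the compared groups in the fit (1.39, adjusted p = 0.181). It was also lost with WT ethanol replicate 4 moved to KO (1.098, limma adjusted p = 0.242) and with that library and KO control replicate 1 both left out (1.38, limma adjusted p = 0.0573), so that 21 of 26 settings kept it.

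No other T region gene was called between genotypes. H2-T10 (chr17:36115871-36121444), whose product is a ligand of some gamma-delta T cells, stood at 3.03, 2.83, 3.42 and 2.52 FPKM in WT control against 5.58, 4.09 and 3.96 in KO control. On the ethanol diet it stood at 2.99, 3.10, 1.85 and 2.89 in WT against 3.97, 2.32, 6.03 and 7.90 in KO, with KO ethanol replicate 2 inside the WT range. Its average difference was 0.55 (SE 0.18, limma adjusted p = 0.491). For H2-T24, given above by library, KO control lay entirely above WT control (log2 difference 0.77, SE 0.26, adjusted p = 0.663, and 0.45 without KO control replicate 1), while the ethanol groups overlapped (0.44). H2-T22, which shares its ligand role with H2-T10, was at 0.01 over diets (95% interval -0.28 to 0.30), and H2-T23 at -0.10 (95% interval -0.42 to 0.23).

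H2-T3, the gene of the thymus leukaemia antigen, was under the filter. It stood at 0.000905 to 0.0234 FPKM in the WT libraries and at 0.0200 to 0.128 in the KO libraries, where 1 fragment is worth 0.0160 to 0.0206 FPKM, so that the WT values amount to fewer than 2 fragments and no fold was computed. In the isoform table, a 1850-base isoform of H2-T24 was at 2.87, 1.24 and 1.63 FPKM in KO control, at 0.000468, 4.04e-06, 0.435 and 0.000157 in KO ethanol and at no more than 2.1e-05 in any WT library. The 2182-base isoform held 70.0% of the gene's mean. Isoform values are the authors' estimates from shared reads, and no test was run on them.

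**Figure D4:**
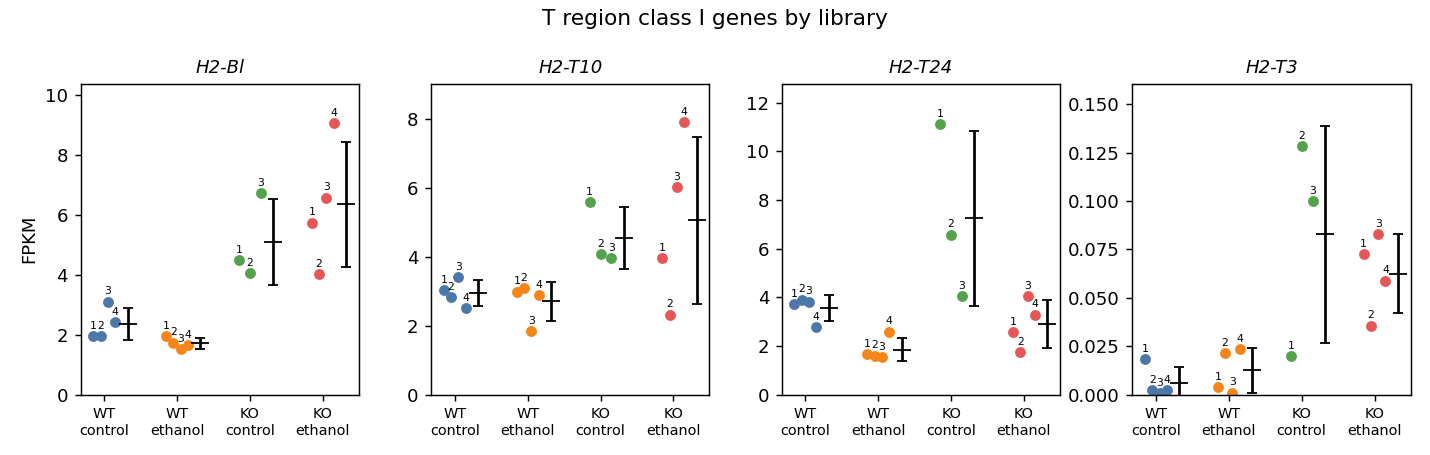
FPKM in each library (points, numbered by replicate) of 4 T region genes, with the group mean and SD beside them; SD bars that would pass below 0 are cut at the axis. All 7 KO libraries lie above all 8 WT libraries for H2-Bl, KO and WT overlap on the ethanol diet for H2-T10 and H2-T24, and H2-T3 is at most 0.128 FPKM.

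The H2 genes and Fkbp5 share a chromosome. Fkbp5 ends at 28486149 on chromosome 17, and the 41 members lie between 5.49 and 8.99 Mb beyond that end, H2-Bl at 7.59 Mb, H2-T10 at 7.63 Mb and H2-T24 at 7.52 Mb. Among 87 other tested genes of the H2 interval, 0 were called by limma between genotypes averaged over diets, 5 at an unadjusted p under 0.05, and their median difference was 0.01. The members' median was 0.04 and that of all genes 0.01. With ethanol, 6 of the 87 were called lower in WT, 3 in KO and 18 on average. Of all tested genes, 4.62%, 2.72% and 13.9% were called lower in these comparisons. Whether the KO chromosome carries other sequence in this interval was not tested.

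**Figure D5:**
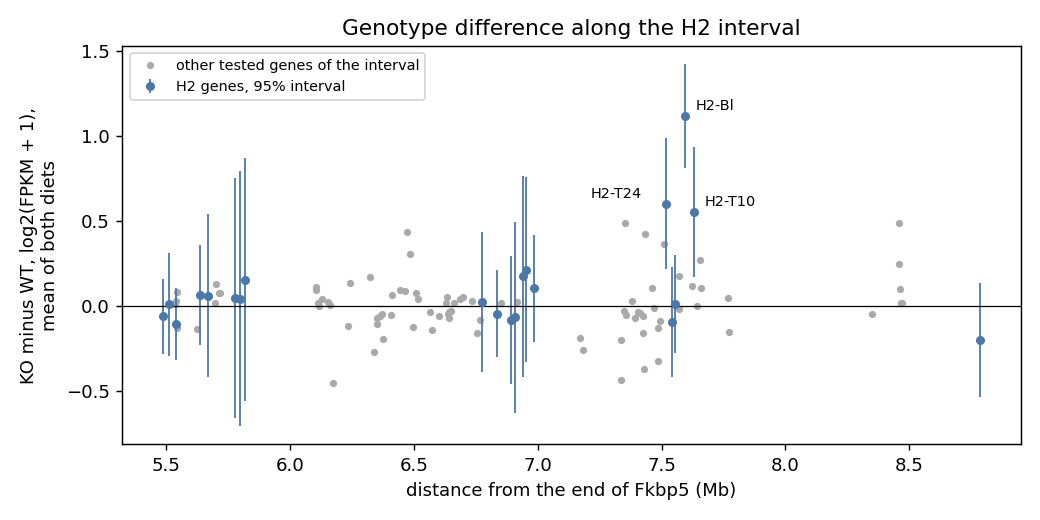
KO minus WT difference in log2(FPKM + 1), averaged over both diets, against the distance from the end of Fkbp5 in Mb, for H2 genes (blue, with 95% intervals) and other tested genes of the interval (grey). H2-Bl stands at 1.12, H2-T24 at 0.60 and H2-T10 at 0.55, and the median of the 87 other genes is 0.01.

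The class II genes were not called between genotypes on either diet. KO minus WT averaged over diets was 0.05 for H2-Ab1 (95% interval -0.66 to 0.76), 0.04 for H2-Aa (-0.71 to 0.79) and 0.16 for H2-Eb1 (-0.56 to 0.87), and these wide intervals leave room for differences in either direction. H2-K1 was at 0.01 (95% interval -0.30 to 0.31), H2-D1 at 0.02 (-0.39 to 0.44) and H2-Q10 at 0.10 (-0.21 to 0.42). H2-Q10 stood at 524, 501 and 728 FPKM in KO control against 607, 450.0, 618 and 504 in KO ethanol, overlapping WT on the control diet. None of the class I assembly, immunoproteasome, class II processing, transcription control or interferon genes was called in a genotype comparison.

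The interaction asks whether the response to ethanol differed between genotypes. For 0 of 21 members, and 0% of all genes, was an interaction called by limma; 1 member and 553 genes had an unadjusted p under 0.05. That member was H2-Q1 (0.57, 95% interval 0.06 to 1.09, limma adjusted p = 1.00). H2-Q1 stood at 13.2, 9.90 and 11.9 FPKM in KO control against 9.45, 6.87, 12.2 and 11.9 in KO ethanol, which overlap, whereas its WT groups did not. H2-K2 stood at 12.8, 12.6 and 13.7 FPKM in KO control against 10.18, 7.44, 10.9 and 11.7 in KO ethanol, which do not overlap (log2 difference -0.36, limma adjusted p = 0.183; interaction 0.38, 95% interval -0.06 to 0.82). In KO it was the only member without overlap, against 15.2% of tested genes lower in this way.

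Several Q region genes were spread widely among the KO ethanol livers. H2-Q5 stood at 18.8, 14.1 and 20.2 FPKM in KO control against 9.56, 7.44, 13.4 and 33.8 in KO ethanol. H2-Q6 and H2-Q7, genes of the Qa-2 family, stood at 8.90, 8.24, 22.2 and 32.4 and at 20.0, 14.6, 34.9 and 45.0 FPKM in KO ethanol. Replicates 1 and 2 were low and replicate 4 high in each. Over the 21 members KO ethanol replicate 4 was the highest of 15 libraries in 12, and KO ethanol replicate 2 the lowest in 11.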

How the data were processed

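RNA of 15 mouse livers was measured by RNA-seq. The authors deposited FPKM per gene and per isoform, with transcript length in bases (another deposited quantity), and no read counts; per the submitters' processing notes TopHat, Cufflinks, Cuffdiff and mm9 were used, with versions not given in the sources used here. Listed positions overlapped GRCm38.p6 genes for 99.53% of 41244 matched symbols, so that positions are given as GRCm38. The symbol H2-M10.5-ps1 does not end in -ps and was kept; it was listed at 0.

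The 13840 genes at or above 1 FPKM in 3 or more libraries entered a limma fit (version 3.58.1, R 4.3.3) of log2(FPKM + 1), with 4 group means and eBayes with a trend, and adjusted after Benjamini-Hochberg over all of them; a gene was called at an adjusted p under 0.05, 2-sided. Adding 1 understates fold changes of low genes. All p-values reflect only the spread from library to library. Depth was estimated from single-isoform genes longer than 1500 bases; on simulated data the estimate was off by 5.58% and 6.65%. Between replicates, correlations across genes ran from 0.907 to 0.977. Python 3.11.15 with pandas 2.3.3 and scipy 1.17.1 was used for tables.

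Every tested member was named, further genes by their lists where called, and B2m, Tap1, Nlrc5, Cd74 and Ciita always; of the marker lists, Emr1 and Tf were not found. A result withheld for evaluation is left out. The members, lists and tests were chosen with earlier results of these data known. Same-numbered libraries did not deviate together (21 pairs, correlations from -0.33 to 0.44, 7 over 0.1), so that no pairing was used. Alternatives were other pseudocounts, filters and scalings, a replicate block, a sex term, the regrouping of WT ethanol replicate 4, a fit of only the compared groups and leaving out each library; leaving out WT ethanol replicate 4 and KO control replicate 1 together was chosen after seeing the data.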

Additional observations from a re-analysis of the deposited data

Results flagged for a closer look

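In 8 of 63 pairings of a gene with a group of 4 libraries, 1 library lay far from the other 3 of its group. The same livers recur over the genes, so the 63 are not independent and the count was not set against chance. KO ethanol replicate 4 was far above its group for H2-Ab1 (21.2 FPKM, the others 2.76 to 5.80), H2-Eb1 (18.7 FPKM, the others 2.43 to 4.24) and H2-DMa (2.40 FPKM, the others 0.718 to 0.984). H2-DMa was also high in WT ethanol replicate 2, at 1.56 FPKM against 0.911 to 0.949, and H2-DMb1 in WT control replicate 4, at 1.91 FPKM against 1.67 to 1.69. H2-T24 was low in WT control replicate 4, at 2.77 FPKM against 3.73 to 3.91, and high in WT ethanol replicate 4, at 2.59 FPKM against 1.55 to 1.69. H2-T10 was low in WT ethanol replicate 3, at 1.85 FPKM against 2.89 to 3.10. Of these libraries, WT ethanol replicate 4 is the one whose genotype labels disagree.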

How the results depend on the processing

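With ethanol in WT, 2 members were called, and 2 to 4 when a library was left out (4 without KO ethanol replicate 4); 3 were called with quantile normalization (H2-Q10 added), and with a sex term, only the groups compared, or WT ethanol replicate 4 and KO control replicate 1 left out (H2-T24 added). With ethanol in KO the 1 call became 0 with a pseudocount of 0.1, no filter on low values, median-ratio scaling, quantile normalization, a common sum, the replicate block, a sex term, only the groups compared, or WT ethanol replicate 4 and KO control replicate 1 left out, and lay between 0 and 4 when 1 library was left out (4 without KO ethanol replicate 4). Averaged over genotypes the 4 calls became 1 under a common sum and 7 under the replicate block, a pairing that the data do not show, and lay between 3 and 8 when 1 library was left out (8 without KO ethanol replicate 4); H2-Ab1 lost its call in 5 of 25 settings. KO against WT on ethanol, the 1 call became 0 with WT ethanol replicate 4 moved to KO, with only the groups compared, and with WT ethanol replicate 4 and KO control replicate 1 left out, and was 0 or 1 when 1 library was left out (0 without KO ethanol replicate 1 or 3). Averaged over diets, the 1 call became 0 with WT ethanol replicate 4 moved. The counts of 0 on the control diet and for the interaction were 0 in every setting run. The causes were not tested. No called value changed sign; over members and comparisons 33 values lost a call and 24 gained one. A common sum moved the median of all genes by 0.26 for ethanol in KO, -0.26 for KO on the control diet and 0.35 for the interaction, and turned H2-Q1 in KO from -0.21 to 0.11 and the members' median there from -0.14 to 0.12. Under a common sum KO control replicate 1 was divided by the largest factor, since its sum was 790741 FPKM, of which 183764 was Rn7s1. Depth limits H2-T3, H2-Oa and H2-DMb2, which hold few fragments.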
